A study of Mus musculus with 4 samples.

Results

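The metallothionein and zinc export genes examined here were Mt1, Mt2, Mt3, Mtf1 and Slc30a1, 5 of the 32285 genes counted in mouse retina. They were chosen by name, with values from these same libraries already known, among them the NLGF against WT difference in Müller glia. That difference is therefore given below as a description. All 5 genes had counts in every library. The single-cell RNA-seq libraries (10x Genomics droplets) came from whole retinas of 30-day-old mice, 1 library per retina and 1 retina per mouse. The NLGF group had 2 mice, 1 female and 1 male. NLGF is the name in use for an App knock-in allele in which the mouse amyloid precursor gene holds a humanised amyloid beta sequence with the Swedish, Iberian and Arctic mutations, under the gene's own promoter and so not restricted to the retina or to 1 cell type. The wild-type (WT) group also had 2 mice, 1 female and 1 male, and the labels name no further allele or treatment for either genotype.

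Metallothioneins are small cysteine-rich proteins that bind zinc and copper in the cytosol and buffer the free metal. Mt1 and Mt2 are the widely inducible pair, raised by zinc, other metals, glucocorticoids and oxidative stress, and in the nervous system they are known mainly from glia, whereas Mt3 is known from neurons and astrocytes. Mtf1 encodes the zinc-sensing transcription factor that binds metal response elements, and Slc30a1 encodes ZnT1, the zinc exporter of the plasma membrane, itself a target of MTF1. Müller glia are the radial glia that span the retina and surround its neurons.

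In the GENCODE M21 annotation of GRCm38, Mt3 (chr8:94152607-94154146), Mt2 (chr8:94172664-94173568) and Mt1 (chr8:94179082-94180327) lay in this order on the plus strand, with 5513 bases between the end of Mt2 and the start of Mt1. Mtf1 (chr4:124802104-124849800) and Slc30a1 (chr1:191906767-191913247), both also on the plus strand, lay on other chromosomes. The promoter windows of Mt1, Mt2 and Slc30a1 are printed because these genes are the textbook targets of MTF1. Each runs on the plus strand from 250 bases before to 50 bases after the gene's start in RefSeq (GRCm38.p6), at chr8:94178839-94179138 for Mt1, chr8:94172368-94172667 for Mt2 and chr1:191906531-191906830 for Slc30a1. Capitals mark the core of the metal response element, searched as TGCACNC and TGCGCNC on both strands.
Mt1: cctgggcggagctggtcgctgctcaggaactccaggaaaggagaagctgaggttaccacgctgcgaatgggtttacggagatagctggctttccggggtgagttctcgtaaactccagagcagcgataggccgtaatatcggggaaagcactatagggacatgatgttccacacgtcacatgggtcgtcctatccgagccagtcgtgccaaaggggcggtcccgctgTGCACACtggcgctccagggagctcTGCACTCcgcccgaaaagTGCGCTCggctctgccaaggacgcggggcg
Mt2: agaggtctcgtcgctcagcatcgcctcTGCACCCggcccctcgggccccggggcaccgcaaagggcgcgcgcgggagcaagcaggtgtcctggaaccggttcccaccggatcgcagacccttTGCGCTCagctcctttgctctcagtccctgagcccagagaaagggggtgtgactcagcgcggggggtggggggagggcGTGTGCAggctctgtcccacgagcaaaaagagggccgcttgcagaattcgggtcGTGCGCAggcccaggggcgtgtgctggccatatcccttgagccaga
Slc30a1: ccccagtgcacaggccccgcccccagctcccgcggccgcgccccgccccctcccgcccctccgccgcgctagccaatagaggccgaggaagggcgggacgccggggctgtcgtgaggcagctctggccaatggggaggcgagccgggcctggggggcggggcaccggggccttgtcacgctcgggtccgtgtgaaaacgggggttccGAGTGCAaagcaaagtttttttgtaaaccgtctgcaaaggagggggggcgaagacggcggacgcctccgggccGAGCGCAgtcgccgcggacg
Mt2 had 4 cores, a number reached by 0.518% of the 32851 RefSeq mouse promoter windows of the same length. Mt1 had 3 cores, a number reached by 1.97% of windows, and Slc30a1 had 2, a number reached by 7.11%. In Mt1 the first began 23 bases before the start and the last ended at base 27 of the transcript. The Mt3 window had 1 core and the Mtf1 window had 0, where 25.7% of all windows had at least 1. The core of the amino acid response element bound by ATF4 (TGATGNAA) was found in none of the 5 windows and in 3.97% of all windows. The antioxidant response element core (TGACNNNGC) was found once each in Mt2 and Slc30a1, in neither case overlapping a metal response element core, and in 12.4% of all windows. These matches are descriptions of the letters, not binding sites.

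The deposited matrices held 35191 barcodes and 85860041 unique molecular identifiers (UMIs), between 19128388 and 23473093 UMIs per library. After filtering, 31331 cells in 36 clusters remained, and marker genes named 10 cell classes. Each class is called after a cell type only by its resemblance to that type in these markers. The 5 genes were kept out of the clustering. Müller glia were 1371 cells in 5 clusters, and all 10 of their markers were detected in them, at a summed 37291 and 38042 UMIs per 1000000 UMIs of the class (CPM) in the NLGF libraries and 38301 and 36845 CPM in the WT libraries. Rods were 25009 cells, cone bipolar cells 986, rod bipolar cells 695, cones 692, amacrine cells 621, ganglion cells 90, endothelial cells 85, microglia 76 and horizontal cells 60. The leading gene of the endothelial cluster was Rgs5, a marker of the mural cells that wrap capillaries. Of the remaining cells, 1646 in 8 clusters had no class. Between 17 and 34 cell barcodes were shared by any 2 libraries.

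Mt1 was most abundant in Müller glia and in rod bipolar cells, the bipolar type that carries rod signals. In Müller glia it stood at 1421 CPM in the NLGF female and 1358 CPM in the NLGF male, against 1048 CPM in the WT female and 965 CPM in the WT male. In rod bipolar cells it stood at 1191 and 1052 CPM in the NLGF female and male, against 789 and 870 CPM in the WT female and male. Müller glia were above rod bipolar cells in each of the 4 libraries, by 1.11 to 1.33 times, although the ranges over libraries overlapped. These classes held 36.2% and 23.6% of all Mt1 UMIs, from 4.38% and 2.22% of the cells.

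Mt1 and Mt2 are related paralogs, and the sources used here do not say how reads matching both were counted. The cells of no named class, at 551 to 690 CPM of Mt1, are outside the orders given here. They held 13.1% of the Mt1 UMIs, 14.7% of those of Mt2 and 15.9% of those of Mt3. Among the named classes, Müller glia and rod bipolar cells were followed for Mt1 by horizontal cells with a mean of 410 ± 193 CPM (SD over 4 libraries). Then came amacrine cells with 358 ± 53.7, microglia with 306 ± 71.7 and cone bipolar cells with 246 ± 38.3. The ranges of each of these neighbours overlapped, whereas the rod bipolar range (789 to 1191 CPM) did not reach the horizontal one (262 to 692 CPM). Ganglion cells had 121 ± 68.4 CPM, below the cone bipolar range. Photoreceptors and endothelial cells were at the bottom, with 35.7 ± 5.90 CPM in rods, 15.9 ± 7.42 CPM in cones and 11.3 ± 7.52 CPM in endothelial cells. Within libraries, Mt1 in Müller glia was 30.5 to 37.0 times its level in rods and 4.63 to 5.51 times that in cone bipolar cells.

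**Figure D1:**
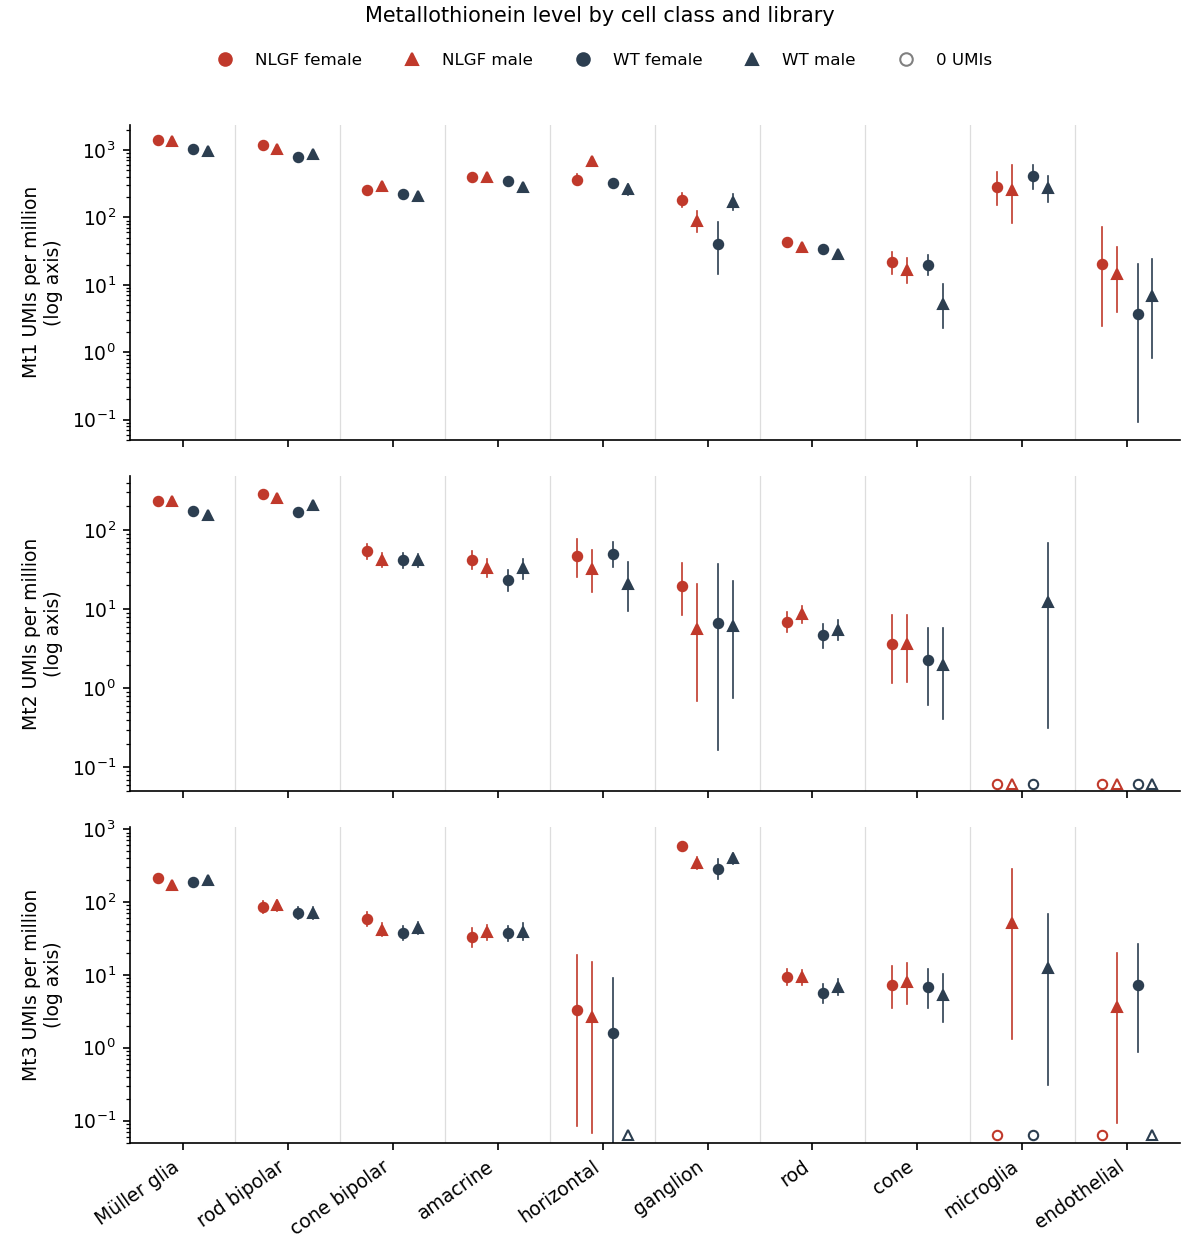
Level of Mt1, Mt2 and Mt3 in UMIs per 1000000 UMIs of the class (log axis) for 10 cell classes, with 1 point per library, NLGF in red left of WT in dark blue, circles for females and triangles for males; bars are exact 95% Poisson intervals for counting error, and open symbols at the foot mark 0 UMIs. Mt1 and Mt2 peak in Müller glia and rod bipolar cells, Mt3 in ganglion cells and Müller glia, and no endothelial library holds an Mt2 UMI.

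Mt2 had the same pair of leading classes in the other order. Its mean was 231 ± 52.2 CPM in rod bipolar cells and 198 ± 39.1 CPM in Müller glia (SD, n = 4), with overlapping ranges and rod bipolar cells above Müller glia in 3 of 4 libraries. The next class, cone bipolar cells, averaged 44.9 CPM, and the Müller range (155 to 232 CPM) did not overlap it. Rods had 6.46 ± 1.77 CPM and cones 2.88 ± 0.885 CPM. In microglia 1 Mt2 UMI was counted over the 4 libraries and in endothelial cells 0 of 943676 UMIs, which allows up to 3.18 CPM in endothelial cells (3 counts, counting error only).

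Mt3 was distributed differently. Its highest level was in ganglion cells, the retina's output neurons, with 586 and 346 CPM in the NLGF female and male and 286 and 399 CPM in the WT female and male. These values rest on few cells, since 32 of 90 ganglion-class cells had an Mt3 UMI and a single cell held between 30% and 58.1% of the Mt3 UMIs of its library. As a mean over cells of their own UMIs per 10000, which gives deep cells no more weight than shallow ones, Müller glia came first with 2.20 and ganglion cells followed with 1.55. Müller glia had 194 ± 17.3 CPM of Mt3, rod bipolar cells 79.4 ± 9.50 and cone bipolar cells 45.6 ± 8.76 (SD, n = 4). The Müller range overlapped neither its upper nor its lower neighbour. Horizontal cells, with 410 CPM of Mt1, had 1.91 ± 1.46 CPM of Mt3, resting on 3 UMIs.

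The make-up of the metallothionein UMIs varied by class. In Müller glia 75.4% of 11778 metallothionein UMIs were Mt1, 12.5% Mt2 and 12.1% Mt3. In rod bipolar cells the shares were 75.8%, 18.0% and 6.20%, and the Mt3 share ran from 5.45% to 6.92% over the libraries, against 9.84% to 15.1% in Müller glia. Ganglion cells had the reverse make-up, with 74.7% Mt3 (exact 95% binomial interval 71.4% to 77.9%, counting error only), and horizontal cells had 90.8% Mt1 and 0.401% Mt3. In rods the shares were 71.3%, 13.0% and 15.7%, where all cells together gave 74.5%, 13.3% and 12.1%. Müller markers summed to 303 and 325 CPM in rods of the NLGF libraries and to 294 and 346 CPM in rods of the WT libraries, and the part of free RNA in the low photoreceptor levels was not tested.

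**Figure D2:**
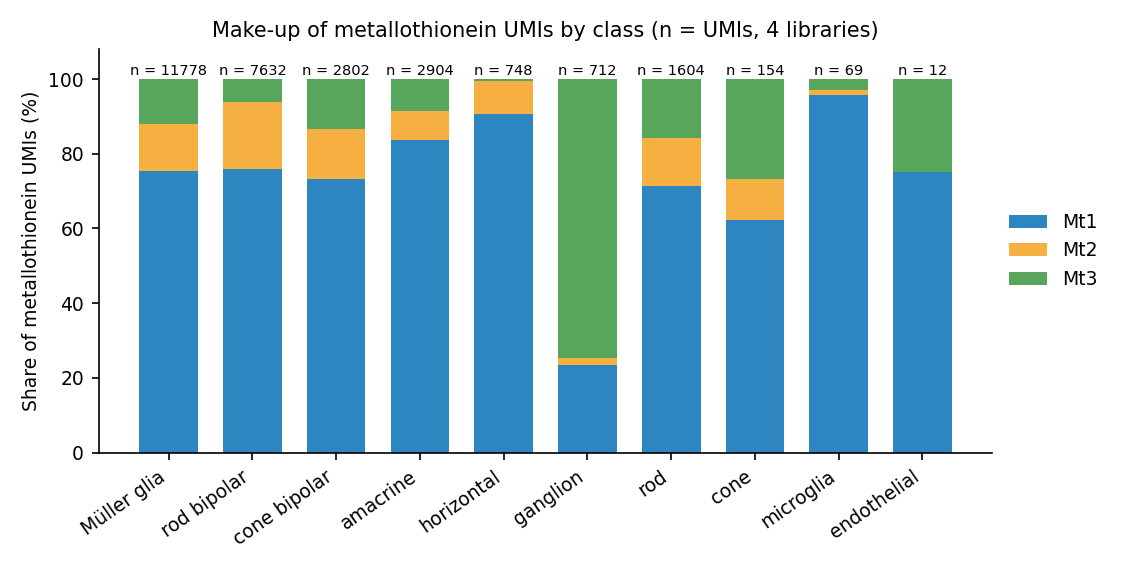
Share of Mt1, Mt2 and Mt3 among the metallothionein UMIs of each cell class in percent, over the 4 libraries together, with the number of UMIs above each bar. Mt1 makes up most of the UMIs in every class shown except ganglion cells, where Mt3 has 74.7%, and the bars of microglia and endothelial cells rest on 69 and 12 UMIs.

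Mtf1, the zinc sensor, had a flatter profile than the metallothioneins. Rod bipolar cells led with 92.8 and 89.1 CPM in the NLGF female and male and 81.9 and 83.2 CPM in the WT female and male. Microglia came next with 62.6 ± 33.7 CPM from 12 UMIs, then rods with 42.7 ± 2.11 CPM and cone bipolar cells with 36.6 ± 8.93 CPM. Müller glia, the class richest in Mt1, were ninth of 10 with 23.4 ± 6.78 CPM, and in every library they were at 0.149 to 0.347 times the rod bipolar level. Each class overlapped its neighbour in this order, rod bipolar cells and microglia included. Rods held 44.1% of the Mtf1 UMIs and 42.4% of all UMIs.

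Slc30a1, the zinc exporter, stood out in endothelial cells. There it had 284 CPM in the NLGF female (28 UMIs) and 246 CPM in the NLGF male, against 241 CPM in the WT female and 173 CPM in the WT male. The next class, microglia, averaged 47.2 ± 46.1 CPM from 7 UMIs, followed by cone bipolar cells at 32.0 ± 4.51 CPM, and Müller glia had 25.7 ± 8.23 CPM (SD, n = 4). The endothelial range did not overlap that of microglia, and all further neighbours overlapped. Of the endothelial cells 43 of 85 had an Slc30a1 UMI, at a median of 4768 UMIs per cell, where 2.53% to 2.75% of rods had one at a median of 890. In the NLGF female, with 12 endothelial cells, a single cell held 50% of these UMIs. Endothelial cells were 0.271% of the cells and held 10.3% of the Slc30a1 UMIs. Mural markers summed to 3682 and 8599 CPM in this class in the NLGF libraries, against 12569 and 7589 CPM in the WT libraries, and endothelial markers to 14595 and 13968 CPM in the NLGF libraries, against 12164 and 13018 CPM in the WT libraries. Erythroid markers ran from 3898 to 12434 CPM in the NLGF libraries and from 7.29 to 31184 CPM in the WT libraries. The part of mural and red blood cells in the Slc30a1 level was not tested. Mt1 in this class rested on 9 UMIs and overlapped cones.

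**Figure D3:**
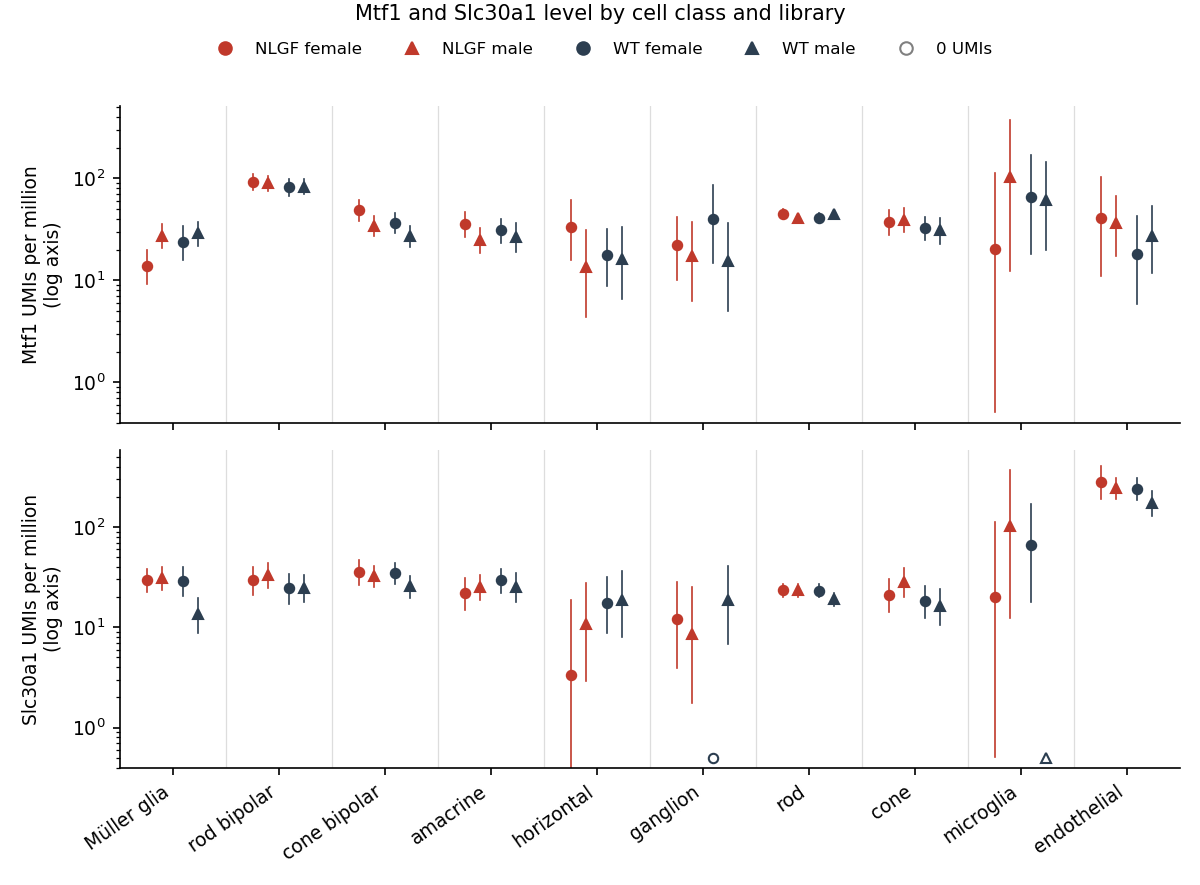
Level of Mtf1 and Slc30a1 in UMIs per 1000000 UMIs of the class (log axis) for 10 cell classes, with 1 point per library, NLGF in red left of WT in dark blue, circles for females and triangles for males; bars are exact 95% Poisson intervals for counting error, and open symbols mark 0 UMIs. Mtf1 is highest in rod bipolar cells at 81.9 to 92.8 CPM, and Slc30a1 in endothelial cells at 173 to 284 CPM.

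The genes whose levels followed each member most closely across classes were taken from 7802 genes. Pearson's r of log2(CPM + 1) was used over 8 classes in 4 libraries, 32 points. Ganglion cells, the class highest in Mt3, and horizontal cells had fewer than 10 cells in a library. Both were left out, so r does not cover them. The 32 points share libraries and classes, so r is a description. For Mt1 the closest genes included Sorl1 (r = 0.85), Arl6ip1 (0.83) and Cacna1d (0.82). For Mt1, Mt2 had rank 11 with r = 0.785, and Mt3 had rank 44 with r = 0.72. For Mt2 they were Gm17750 (0.95), Sorcs2 (0.94), Tox2 (0.93) and Cntnap2 (0.93), and for Mt3 they were Pfn2 (0.90), Gpm6a (0.90), Mt2 (0.89) and Gm17750 (0.88). For Mtf1 they were Rab5if (0.82), Mfap3 (0.76), Ivns1abp (0.74) and Ralgapa2 (0.73), and Mt1 stood at r = 0.21. For Slc30a1 they were Tmem184b (0.89), Pkp4 (0.88), Csnk1g2 (0.84) and Rab22a (0.83), and Mt1 stood at r = -0.34.

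The study asks about an early stress response in Müller glia of NLGF mice. In Müller glia both NLGF libraries were above both WT libraries for Mt1, at the values given above, and for Mt2. Mt2 stood at 232 and 231 CPM in the NLGF female and male, against 175 and 155 CPM in the WT female and male. This order of the 4 libraries was met by 24.6% of all genes tested in Müller glia. The fitted log2 fold change, NLGF over WT, was 0.42 ± 0.10 for Mt1 (SE, a fold of 1.34) and 0.45 ± 0.10 for Mt2 (a fold of 1.37). With edgeR's quasi-likelihood test over 11065 genes, 2 of the 5 members were called at an adjusted p under 0.05 (0.0465 for Mt1 and 0.0207 for Mt2), where 1.17% of all genes tested were called. Both were higher in NLGF, as were 0.642% of the genes tested. Since these libraries and this contrast were known when the genes were chosen, nothing is read from the count.

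Mt3, the third metallothionein, did not follow this pattern in Müller glia. It had 215 and 174 CPM in the NLGF female and male, against 189 and 199 CPM in the WT female and male. The WT values lay between the NLGF ones, and the log2 fold change was -0.05 ± 0.11. The Mt3 share of Müller metallothionein UMIs was 11.5% and 9.84% in the NLGF female and male, against 13.4% and 15.1% in the WT female and male. Mtf1 had 13.8 and 27.4 CPM in the NLGF female and male, against 23.6 and 28.9 CPM in the WT female and male, with overlapping groups and a log2 fold change of -0.42 ± 0.28. Slc30a1 had 29.6 and 30.8 CPM in the NLGF female and male, against 29.1 and 13.4 CPM in the WT female and male. By these values the WT female lay just below the NLGF libraries, and the WT male, with 27 UMIs, stood apart below them. On edgeR's TMM scale, which the fits use, the WT female (29.7 CPM) lay between the NLGF female (29.4 CPM) and male (30.5 CPM). The log2 fold change of Slc30a1 was 0.55 ± 0.28 (adjusted p = 0.491, edgeR). Without the WT male it was 0.02 ± 0.29 (adjusted p = 0.993), and without the WT female 1.12 ± 0.31 (adjusted p = 0.0158), where the lone WT library is assumed to vary like the NLGF pair. Of 13 alternatives 12 gave no call.

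**Figure D4:**
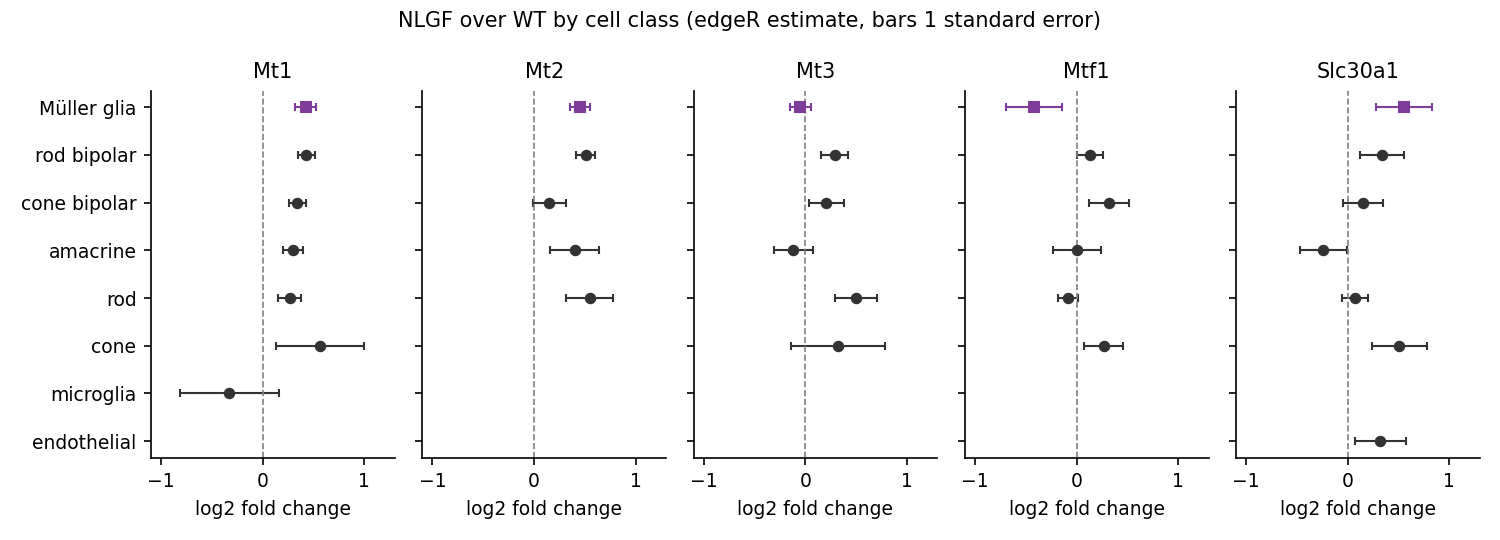
Fitted log2 fold change of NLGF over WT for each gene by cell class, with bars of 1 standard error; Müller glia are drawn as purple squares, the other classes as dark circles, and a class where the gene fell under the filter on low counts has no point. Mt1 lies above 0 in 6 of the 7 classes and Mt2 in all 5, while Mt3, Mtf1 and Slc30a1 lie on both sides of 0.

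The share of Müller cells with an Mt1 UMI was drawn from the same counts, so it is another view of the Mt1 difference and no further support. Cells were thinned to 1000 UMIs each, which kept 261 of 394 and 246 of 369 cells of the NLGF female and male, and 174 of 235 and 246 of 373 of the WT female and male. Then 67.4% and 65.4% of NLGF cells had an Mt1 UMI, against 50% and 47.6% of WT cells. Unthinned, the shares were 79.2% and 82.7% in the NLGF libraries and 75.3% and 66.8% in the WT libraries. In rods, which have little Mt1, the thinned shares were 3.76% and 2.83% in the NLGF libraries and 2.80% and 2.63% in the WT libraries, at a median of 890 UMIs per cell before thinning against 2760 in Müller glia. The mean was 1.44 and 1.42 Mt1 UMIs per thinned Müller cell in the NLGF libraries, against 0.885 and 0.874 in the WT libraries. For Mt2 the thinned shares were 23.0% and 17.9% in the NLGF libraries, against 13.8% and 13.4% in the WT libraries. Among thinned Müller cells with an Mt1 UMI, Mt2 was also present in 27.3% and 22.4% of NLGF cells and 17.2% and 18.8% of WT cells. Among those without one, it was present in 14.1% and 9.41% of NLGF cells and 10.3% and 8.53% of WT cells.

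**Figure D5:**
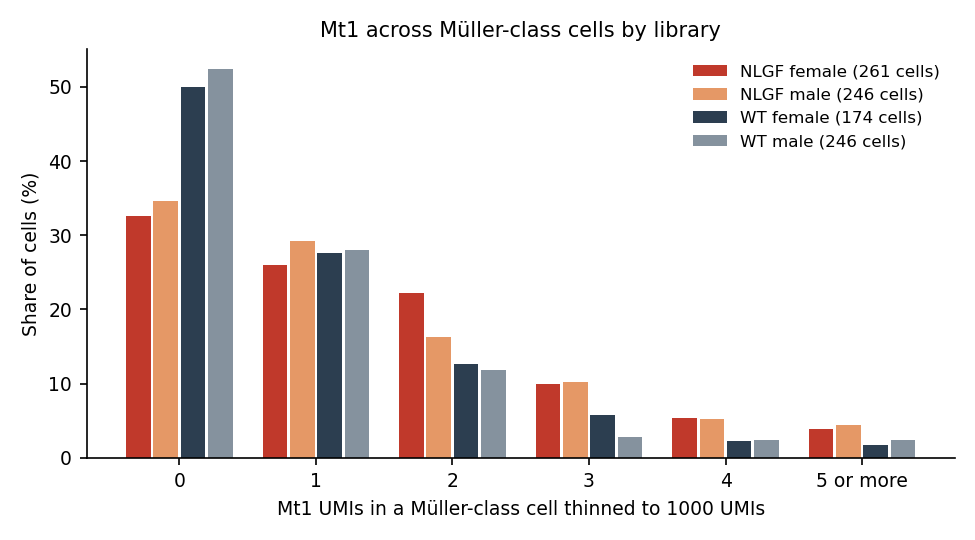
Share of Müller-class cells in percent by their number of Mt1 UMIs after thinning each cell to 1000 UMIs, with 1 bar per library, NLGF female and male left of WT female and male, and the number of thinned cells in the legend. Cells with 0 Mt1 UMIs are 32.6% and 34.6% in the NLGF libraries and 50% and 52.4% in the WT libraries, and the NLGF bars are the taller ones from 2 UMIs upward.

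The 5 Müller clusters differed in depth and in metallothionein level. The deepest large cluster, with 592 cells, a median of 9933 UMIs and Slc1a3, Apoe and Aqp4 among its leading genes, held 79.5% of the Müller Mt1 UMIs, with 1406 and 1296 CPM in the NLGF female and male and 1127 and 943 CPM in the WT female and male. A cluster of 247 cells led by S100a1, Dbi and Dapl1, with a median of 1141 UMIs, had 2118 and 1850 CPM of Mt1 in the NLGF libraries, against 1214 and 1024 CPM in the WT libraries. In it Mt2 stood at 448 and 335 CPM in the NLGF libraries, against 99.8 and 192 CPM in the WT libraries, from 6 to 51 UMIs per library. A cluster of 399 shallow cells was led by Igf2 and Dbi, with a median of 647 UMIs and no Müller marker among its 10 leading genes. It had 1802 and 2242 CPM of Mt1 in the NLGF libraries, against 812 and 1602 CPM in the WT libraries. In the WT female it held 103510 UMIs from 47 cells at a median of 665, so most came from cells deeper than the median. In the NLGF female it held 79890 UMIs from 112 cells at a median of 638. The 812 CPM is therefore not a level of shallow cells alone. The smallest cluster, 40 deep cells, had 1348 and 1509 CPM in the NLGF libraries, against 988 and 932 CPM in the WT libraries.

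A cluster of 93 cells led by Col2a1 and Sned1, none of whose 10 leading genes is a Müller marker, was low in Mt1 in all 4 libraries, at 165 and 169 CPM in the NLGF libraries and 188 and 189 CPM in the WT libraries, 7 to 13 UMIs each. Fitted alone, the 4 clusters with at least 10 cells in every library had 0 called members each with edgeR, and the log2 fold change of Mt1 in the Col2a1 cluster was -0.12 ± 0.45.

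Astrocytes, the other retinal macroglia, were looked for with 5 markers, Gfap, Pax2, Pdgfra, Igfbp5 and S100b. Their summed level in the Müller class was 42.4 and 45.3 CPM in the NLGF libraries, against 695 and 72.7 CPM in the WT female and male, so the WT female stood apart. Without the 31 cells holding UMIs of at least 2 of these markers, Mt1 was at 1432 and 1338 CPM in the NLGF libraries and 1040 and 972 CPM in the WT libraries, and its log2 fold change was 0.42 ± 0.11 (edgeR, adjusted p = 0.0897). Mt2 then had a log2 fold change of 0.42 ± 0.10 and an adjusted p of 0.0549. Both values kept their size and missed the threshold. The share of Müller-class cells per library also differed, at 5.51% and 4.63% of NLGF cells and 2.90% and 4.59% of WT cells, as did mitochondrial UMIs of the class, at 6.41% and 6.51% in the NLGF libraries and 7.12% and 7.73% in the WT libraries. Their part in the Mt1 and Mt2 values was not tested.

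The calls in Müller glia depended on single libraries. Without the NLGF female the edgeR adjusted p was 0.535 for Mt1 and 0.149 for Mt2, and without the NLGF male it was 0.435 for Mt1 and 0.176 for Mt2. Without the WT male it was 0.0138 for Mt1 and 0.119 for Mt2, and without the WT female 1.25e-06 for Mt1 and 0.000678 for Mt2. The log2 fold changes in these fits ran from 0.37 to 0.53.

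Outside Müller glia, 26 gene and class pairs in 7 classes passed the filter on low counts, and ganglion and horizontal cells, with fewer than 10 cells in a library, were not fitted. With edgeR 0 of the 26 were called at an adjusted p under 0.05, as with DESeq2. At an unadjusted p under 0.05 there were 8 with edgeR and 3 with DESeq2, all of them higher in NLGF. Among all genes, edgeR gave such a p for 1032 of 12372 in rods, 741 of 11067 in cone bipolar and 588 of 9345 in rod bipolar cells. It did so for 534 of 9337 in cones, 480 of 10980 in amacrine cells, 264 of 5195 in endothelial cells and 82 of 783 in microglia. In the same order of classes DESeq2 gave 356, 114, 96, 64, 82, 37 and 29 genes. The direction of these genes was not counted. The share of all genes called in these classes was 0.172% in cone bipolar cells, 0.0962% in endothelial cells, 0.0107% in rod bipolar cells, 0.00808% in rods and 0% in cones, amacrine cells and microglia. Higher in NLGF were 0.0813% in cone bipolar cells, 0.0192% in endothelial cells, 0.0107% in rod bipolar cells and 0% in the others. All classes come from the same 4 libraries, so their values are given side by side and are not independent of one another.

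In rod bipolar cells Mt1, at the values given above, had a log2 fold change of 0.43 ± 0.09 (adjusted p = 0.152, edgeR), and both NLGF libraries were above both WT libraries. Mt2 there had 288 and 258 CPM in the NLGF female and male, against 170 and 208 CPM in the WT female and male, a log2 fold change of 0.51 ± 0.09 (adjusted p = 0.143, edgeR). These estimates were as large as those in Müller glia, and the difference between the classes was not tested. Of 9345 genes 1 was called in this class. In simulated counts of this class 39.3% of genes changed 1.5 times were called, with 137 calls in all. With more calls the adjusted threshold is met at a larger p, so this share does not apply to the fit with 1 call. Whether Mt1 and Mt2 were called depended on the library left out. Leaving out the NLGF female gave an adjusted p of 0.377 for Mt1 and 0.0787 for Mt2, and leaving out the NLGF male gave 0.009 for Mt1 and 0.00244 for Mt2. Leaving out the WT female gave 0.118 for Mt1 and 0.149 for Mt2, and leaving out the WT male gave 0.000383 for Mt1 and 4.11e-06 for Mt2. With DESeq2 it was 0.171 for Mt1 and near 1 for Mt2. Mt3 in rod bipolar cells had 85.2 and 89.8 CPM in the NLGF libraries, against 71.3 and 71.4 CPM in the WT libraries, a log2 fold change of 0.29 ± 0.14 (adjusted p = 0.787).

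In cone bipolar cells Mt1 had 258 and 293 CPM in the NLGF female and male, against 226 and 206 CPM in the WT female and male, with a log2 fold change of 0.34 ± 0.08 (adjusted p = 0.0778, edgeR). In amacrine cells, the inhibitory interneurons, it had 403 and 395 CPM in the NLGF libraries, against 347 and 287 CPM in the WT libraries, with a log2 fold change of 0.30 ± 0.10 (adjusted p = 0.999). In rods it had 43.0 and 36.7 CPM in the NLGF libraries, against 34.4 and 28.7 CPM in the WT libraries, with a log2 fold change of 0.26 ± 0.12 (adjusted p = 0.598). Groups did not overlap in any of these. The other metallothioneins had the same order of libraries in rods, with 7.0 and 8.69 CPM of Mt2 in the NLGF libraries, against 4.69 and 5.47 CPM in the WT libraries. Mt3 in rods had 9.47 and 9.29 CPM in the NLGF libraries, against 5.60 and 6.90 CPM in the WT libraries (adjusted p = 0.593 for each). In cones the WT female (19.9 CPM) lay between the NLGF libraries (21.8 and 16.8 CPM), above the WT male (5.25 CPM, 8 UMIs), and the log2 fold change of Mt1 was 0.56 ± 0.44 (adjusted p = 0.909). Without the WT male it was -0.06 ± 0.35 (adjusted p = 0.993), and without the WT female 1.87 ± 0.52 (adjusted p = 0.0466). In microglia, where 783 genes passed the filter, Mt1 had 284 and 257 CPM in the NLGF libraries and 412 and 271 CPM in the WT libraries, from 5 to 25 UMIs each, with a log2 fold change of -0.33 ± 0.49. Müller markers in this class, 8 of 10 above 0 with Sox9 and Kcnj10 at 0, summed to 2149 and 2054 CPM in the NLGF libraries, against 10173 and 3508 CPM in the WT libraries. Their part in the microglial Mt1 level was not tested.

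Over the 7 fitted classes in which Mt1 passed the filter, both NLGF libraries were above both WT libraries in 5 and below in 0. This order was taken on CPM of the class. On edgeR's TMM scale, which the fits use, Mt1 in microglia had 396 and 399 CPM in the NLGF female and male. The WT female and male had 600 and 408 CPM there, so both NLGF libraries were below. Mt2 passed in 5 classes and by CPM its NLGF libraries were above in all 5. The closest values were 42.2 against 41.9 CPM in cone bipolar cells and 33.6 against 33.0 CPM in amacrine cells. On the TMM scale the order was not met in these 2 classes. The NLGF male had 41.9 CPM against 42.8 in the WT male in cone bipolar cells, and 33.5 against 34.5 in amacrine cells. By CPM both NLGF libraries were also above both WT libraries for Mt3 in 3 of 6 classes and for Mtf1 in 2 of 6, with 0 below for either. Among all genes tested this order of the 4 libraries was met by 24.6% of genes in Müller glia, 31.6% in rods, 21.2% in cone bipolar cells, 19.8% in amacrine cells, 18.6% in rod bipolar cells, 17.8% in cones, 20.3% in microglia and 16.8% in endothelial cells. The opposite order was met by 16.4% of genes in Müller glia, 11.3% in rods, 15.2% in cone bipolar cells, 12.9% in amacrine cells, 17.1% in rod bipolar cells, 17.0% in cones, 20.1% in microglia and 18.1% in endothelial cells.

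By CPM of the class, Slc30a1 had both NLGF libraries above both WT libraries in 5 of 7 classes. On edgeR's TMM scale this order was not met in rods or in Müller glia. In 1 class, the amacrine cells, Slc30a1 had both NLGF libraries below both WT libraries. There it had 22.0 and 25.4 CPM in the NLGF female and male, against 29.3 and 25.5 CPM in the WT female and male, so that the males were almost equal. This order was met by 12.9% of all genes tested in amacrine cells. In endothelial cells, its highest class, the log2 fold change was 0.32 ± 0.25 (adjusted p = 0.985, edgeR), and in rods 0.07 ± 0.13 (adjusted p = 0.916). Mtf1 in rods had 44.7 and 40.5 CPM in the NLGF libraries and 41.3 and 44.3 CPM in the WT libraries, with a log2 fold change of -0.09 ± 0.10 (adjusted p = 0.856).

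Other genes of metal handling were taken from lists drawn up beside the members. Of 23 further zinc transporters, the importers of the Slc39 family and the exporters of the Slc30 family, 14 passed the filter in Müller glia. With edgeR 0 were called in either direction and 1 had an unadjusted p under 0.05. Of all 11065 genes tested in Müller glia, 1179 had such a p. The median log2 fold change of these zinc transporters was -0.13, where the median of all genes tested was 0.00. The smallest p belonged to Slc30a10, a manganese exporter, which had 24.5 and 20.7 CPM in the NLGF libraries, against 49.0 and 27.1 CPM in the WT libraries, on edgeR's TMM scale used for the listed genes. Its log2 fold change was -0.69 ± 0.25 (adjusted p = 0.284), without the WT female it was -0.26 ± 0.28 (adjusted p = 0.796), and without the WT male -1.11 ± 0.27 (adjusted p = 0.0211). Next came Slc39a1, a zinc importer, with a log2 fold change of -0.30 ± 0.15 (adjusted p = 0.499).

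Of 14 copper genes 12 passed the filter and 0 were called, with 2 at an unadjusted p under 0.05 and a median log2 fold change of 0.01. They were Sco2, an assembly factor of cytochrome oxidase (log2 fold change 1.15 ± 0.38, adjusted p = 0.203, edgeR), and Cox17, its copper chaperone (0.21 ± 0.10, adjusted p = 0.465). Of 15 glucocorticoid-responsive genes 11 passed and 0 were called, with 1 at an unadjusted p under 0.05 and a median of -0.01. It was Klf9, a transcription factor induced by glucocorticoids, which had 333 and 318 CPM in the NLGF libraries, against 254 and 243 CPM in the WT libraries, with a log2 fold change of 0.39 ± 0.10 (adjusted p = 0.0604, edgeR). With 1 library left out the adjusted p for Klf9 ran from 0.0173 (no WT female) to 0.487 (no NLGF female). Errfi1, a receptor inhibitor, followed with -0.38 ± 0.21 (adjusted p = 0.554). Of 8 further reported MTF1 targets 7 passed and 0 were called, with 1 at an unadjusted p under 0.05 and a median of -0.07. It was Ndrg1, a stress-responsive gene, which had 34.3 and 31.5 CPM in the NLGF libraries, against 14.5 and 23.0 CPM in the WT libraries, with a log2 fold change of 0.76 ± 0.24 (adjusted p = 0.171, edgeR). Gclc, the catalytic subunit of glutathione synthesis, followed with 0.26 ± 0.17 (adjusted p = 0.649). DESeq2 also called 0 genes of each list in Müller glia, with 0, 0, 1 and 1 at an unadjusted p under 0.05 in the order above. Over all 11065 genes tested there, 1179 with edgeR and 338 with DESeq2 had such a p, so nothing is read from these counts. In the other classes 0 of 74, 68, 57 and 41 gene and class pairs of these lists were called with either tool. Of these pairs 1, 4, 7 and 2 had an unadjusted p under 0.05 with edgeR and 0, 1, 2 and 2 with DESeq2. The counts over all genes of these classes are given above, beside those of the members. Slc39a10 and Atp7b stand in 2 lists each.

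Classes too small for a fit and all cells together were also compared by value. Horizontal cells had 363 and 692 CPM of Mt1 in the NLGF female and male, against 321 and 262 CPM in the WT female and male. These values rest on 9 cells in each NLGF library, against 24 and 18 cells in the WT female and male, and a single cell held 33.9% and 36.8% of the Mt1 UMIs of the NLGF libraries, against 10.5% and 25.9% in the WT libraries. Ganglion cells overlapped for Mt1, with 183 and 88.6 CPM in the NLGF libraries and 39.9 and 171 CPM in the WT libraries. Over all cells Mt1 stood at 400 and 362 CPM in the NLGF libraries, against 262 and 271 CPM in the WT libraries, a level that also moves with the share of Müller glia in each library. Cells of no named class overlapped for Mt1, with 690 and 564 CPM in the NLGF libraries and 551 and 621 CPM in the WT libraries.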

How the data were processed

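Retinas of 4 mice (2 NLGF, 2 WT) were profiled by droplet single-cell RNA-seq. The authors deposited UMI counts per gene and barcode, made with Cell Ranger 3.1.0 and STAR on mm10, per the submitters' processing notes, whereas the file headers name Cell Ranger 6.1.1. The sources used here do not say whether intron reads were included. Of 32285 gene IDs, 32235 were found in GENCODE M21. The members and lists were chosen with earlier results of these data known.

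Filtering on 300 or more genes and no more than 20% mitochondrial UMIs kept 33329 of 35191 barcodes, each with at least 500 UMIs. Scrublet marked only 5 as doublets, so the 6% with the highest scores in each library were removed instead. Clustering (scanpy 1.11.5, leidenalg 0.10.2) used 2000 variable genes without the members, 30 components, 20 neighbours and resolution 1, then 1.5 for cells other than rods. A cluster was named from markers with at least 3 detected. Counts were summed per library and class, and NLGF was compared with WT in classes of at least 10 cells per library with edgeR 4.0.16 (quasi-likelihood test, TMM, filterByExpr, Benjamini-Hochberg adjustment over all genes of the class, threshold 0.05). DESeq2 1.42.0, no filter, sex as a block, left-out libraries, other cell filters and single clusters were alternatives. CPM are UMIs per 1000000 UMIs of the class. Intervals and floors (3 counts) cover counting error only.

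Named were the members, for each member the 4 genes most like it among genes averaging at least 20 CPM (1 of them is not reported here), and the 2 list genes of smallest p in Müller glia where a list had no call. Nothing says that equal sex marks a shared litter or batch. In simulated Müller counts over 11065 genes, 18.3%, 56.9% and 96.9% of genes changed 1.5, 2 and 4 times were called, with 3 false among 110 calls.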

Additional observations from a re-analysis of the deposited data

Results flagged for a closer look

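The order of the libraries for Slc30a1, by CPM of the class, was opposite in different classes. Both NLGF libraries were below both WT libraries in amacrine cells. They were above them in rods, Müller glia, rod bipolar cells, cones and endothelial cells. The log2 fold change, NLGF over WT, was higher than that of amacrine cells by 0.31 in rods, 0.79 in Müller glia, 0.58 in rod bipolar cells, 0.75 in cones and 0.56 in endothelial cells. Several of these orders rest on near ties. The closest libraries were 25.448 CPM (NLGF) against 25.455 CPM (WT) in amacrine cells, 23.287 against 23.198 CPM in rods and 29.564 against 29.145 CPM in Müller glia. On edgeR's TMM scale, which the fold changes use, the order was not met in rods or in Müller glia. In rods the WT female had 23.3 CPM, against 22.7 and 22.8 CPM in the NLGF female and male. In Müller glia it had 29.7 CPM, against 29.4 and 30.5 CPM in the NLGF female and male. Of all genes tested, 12.9% met the order seen in amacrine cells, and the order seen in the other 5 classes was met by 31.6% in rods, 24.6% in Müller glia, 18.6% in rod bipolar cells, 17.8% in cones and 16.8% in endothelial cells. The difference between classes was not tested, and all classes come from the same 4 libraries.

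In the 1646 cells of no named class, which no fit used, Slc30a1 had 37.8 and 43.0 CPM in the NLGF female and male. It had 23.1 and 25.2 CPM in the WT female and male, a ratio of the means of 1.68. It is listed because both NLGF libraries were above both WT libraries, and the other members overlapped between genotypes there. The share of all genes with this order was not counted in these cells, where it was 16.8% to 31.6% in the fitted classes. These cells came from 8 clusters, and the part of their make-up was not tested.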

How the results depend on the processing

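Of 113 alternatives to the counts and ranks, 80 left the value unchanged or within 1.5 times and 33 moved it. The 113 include 70 alternatives to the rank of a class, of which 63 left the rank unchanged. Settings that changed only the Müller cells left the levels of the other classes as they were. The moved values were mostly counts of called genes or members. In Müller glia 130 genes were called. The count was 22 when low counts were not filtered, 43 with DESeq2 and 0 in each of the Igf2, S100a1 and Col2a1 clusters alone. It ran from 87 to 278 with 1 library left out, the highest without the WT female. Of the members there, 2 were called. The count was 1 with DESeq2 or with doublets kept, 0 without the filter, without astrocyte-marker cells or in any of 4 clusters alone, and 0 to 3 with 1 library left out (0 without either NLGF library, 1 without the WT male, 3 without the WT female). Horizontal cells had too few cells for a fit as reported. With the members kept in the clustering they were fitted, and 1 of 2 members tested was called there. That call is left out of the counts that follow. In the other classes fitted as reported 0 of 26 were called. The count was 1 with doublets kept or with the members kept in the clustering, 2 at a limit of 10% mitochondrial UMIs, 3 without the filter, and 0 to 2 with 1 library left out (2 without the NLGF male or the WT male, 1 without the WT female). With sex as a replicate block, 279 genes and 2 members were called in Müller glia and 3 member and class pairs elsewhere. The labels do not make equal sex a pairing. Müller glia had rank 6 for Mt1 in the Col2a1 cluster alone, where the log2 fold change of Mt1 was reversed at -0.12. Rod bipolar cells had rank 2 for Mt2 with the Igf2 or the S100a1 cluster alone, and for Mtf1 by the thinned share of cells with a UMI. Ganglion cells had rank 2 for Mt3 with the Igf2 cluster alone, by the mean over cells and by the thinned share. The causes were not tested. Where 1 library is left out, the lone sample is assumed to vary like the other genotype. With 2 libraries per genotype and 60 to 90 cells in the smallest classes, few UMIs of Mt2, Mt3 and Mtf1 limit what could be detected there.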
